A study of Homo sapiens with 2 samples.

Results

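The RAS-MAPK pathway and feedback genes were 50 named human genes, chosen by name, of 20176 protein-coding genes in the annotation. The choice was made with earlier results of these data known. These genes comprised 5 RAS GTPases, 5 RAS exchange factors and GTPase activators, 6 RAF, MEK and ERK kinases and 7 JNK and p38 branch kinases. The others were 9 DUSP phosphatases, 6 SPRY and SPRED inhibitors, 9 ETS factors and 3 EGR factors. A member was counted at its promoter when a region of either deposited list lay within 1 kb of the transcription start site (TSS) of any of its transcripts. Regions elsewhere between the ends of the gene were counted as gene body regions.

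The study compared FLAG-SMARCA4 binding in the parental line TOV21G, which derives from an ovarian clear cell carcinoma with mutated *ARID1A*, with binding in EZH2 inhibitor-resistant (EIR) cells, as 1 ChIP-seq library each. SMARCA4, also called BRG1, is an ATPase of the SWI/SNF complex, which moves and evicts nucleosomes, and *ARID1A* encodes a subunit of that complex. Both cell populations carried the FLAG tag on the endogenous *SMARCA4* gene and were expanded from single colonies after tagging. The EIR cells were clone 3 of the labels, picked after the EZH2 inhibitor GSK126 had been raised in steps from 5 to 20 μM. Each condition was thus 1 library of 1 clonal population, and no spread between replicates or clones can be given.

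RAS GTPases are switched on by exchange factors such as SOS1 and off by GTPase activators such as NF1. Active RAS recruits RAF kinases, which phosphorylate the MEK kinases, which in turn phosphorylate the ERK kinases, while parallel cascades lead to JNK and p38. ERK activates ETS factors and induces EGR genes, and it also induces DUSP phosphatases, Sprouty (SPRY) and SPRED proteins, which dampen the pathway as feedback.

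The 2 lists held 12896 regions, of which 10792 had more tags in the parental library (parental-higher) and 2104 had more tags in the EIR library (EIR-higher). A tag is 1 aligned read. The totals were about 25600000 tags in the parental and 35000000 tags in the EIR library, and EIR tags were scaled by the authors to the parental total, so that 1 EIR tag counted as 0.733. Each list held only regions that differed between the libraries, so a member without a region may have been bound equally, weakly or not at all. Folds below are parental tags over scaled EIR tags, with exact Clopper-Pearson 95% intervals that cover counting error only. In an exact binomial test with Benjamini-Hochberg adjustment over all regions, 100% of the listed regions passed, as did the 42 promoter regions and 15 gene body regions of the members, so this test did not set the members apart. The adjusted P of the promoter regions lay between 1.08e-10 and 0.00931.

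Promoter sequences are shown for 5 members, each the one with the most tags in its role group among those whose region covered the canonical TSS with no other transcript's exon upstream of it. Each is the stretch of the region directly upstream of the canonical TSS, read from GRCh37, which has the coordinates of hg19, and ends at the base before the TSS. The windows are *ELK3*, chr12:96587953-96588152 on the plus strand; *DUSP1*, chr5:172198199-172198398 on the minus strand; *MRAS*, chr3:138067221-138067420 on the plus strand; *SOS1*, chr2:39348193-39348255 on the minus strand; and *EGR1*, chr5:137800968-137801167 on the plus strand. Capitals mark GGGCGG (the core bound by Sp factors), TGACGTCA (the cAMP response element, CRE), TATAAA and the CArG box bound by serum response factor (SRF), on either strand.
ELK3: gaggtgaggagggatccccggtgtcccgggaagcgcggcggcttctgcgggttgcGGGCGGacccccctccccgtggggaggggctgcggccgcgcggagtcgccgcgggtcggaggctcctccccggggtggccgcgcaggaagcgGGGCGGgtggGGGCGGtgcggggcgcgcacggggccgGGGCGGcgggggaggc
DUSP1: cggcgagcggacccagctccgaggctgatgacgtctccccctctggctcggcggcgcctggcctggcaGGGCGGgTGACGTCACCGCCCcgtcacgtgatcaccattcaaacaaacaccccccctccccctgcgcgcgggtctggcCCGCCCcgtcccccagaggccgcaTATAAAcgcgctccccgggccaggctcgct
MRAS: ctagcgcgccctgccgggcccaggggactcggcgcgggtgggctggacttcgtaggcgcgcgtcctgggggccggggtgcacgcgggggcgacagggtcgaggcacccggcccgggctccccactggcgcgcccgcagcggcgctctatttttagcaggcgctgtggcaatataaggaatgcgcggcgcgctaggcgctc
SOS1: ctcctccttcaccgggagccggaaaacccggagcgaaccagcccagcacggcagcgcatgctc
EGR1: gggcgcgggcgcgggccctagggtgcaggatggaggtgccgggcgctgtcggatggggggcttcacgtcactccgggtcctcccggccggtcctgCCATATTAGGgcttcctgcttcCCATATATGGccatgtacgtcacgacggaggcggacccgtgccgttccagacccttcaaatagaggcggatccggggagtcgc
*ELK3* held GGGCGG 4 times and *DUSP1* held it 3 times. In *DUSP1* the CRE lay 125 to 118 bases and the TATAAA 30 to 25 bases before the TSS. *EGR1*, a classic serum-induced immediate early gene, held CArG boxes at 105 to 96 and at 83 to 74 bases before its TSS. None of the searched motifs was found in the *MRAS* and *SOS1* windows.

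At the promoters of these genes, scaled FLAG-SMARCA4 tags were fewer in the EIR library wherever a region was listed. Each library served as control of the other and tags were scaled to library totals, so a difference in enrichment between libraries was not tested. The study reported less SMARCA4 protein in EIR cells and a general fall in its binding there. A region lay within 1 kb of a TSS in 33 of the 50 members (66%), and it was parental-higher in 33 and EIR-higher in 0 of them. Of all protein-coding genes, 23.2% had a parental-higher promoter region and 1.96% had an EIR-higher one. The members were chosen with earlier results of these data known, and their excess over the share of all genes was not tested. The direction was shared with most of the lists: among 4958 protein-coding genes with a promoter region, the nearest region was parental-higher in 93.6%. A further 4 members had a region in the gene body alone, and 13 had none.

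Where a gene had several promoter regions, the one nearest to a TSS stood for it. These 33 regions held 17 to 163 parental tags (median 76) against 5.13 to 85.8 scaled EIR tags (median 34.5). The median fold was 2.24, and the folds ran from 1.67 at *MAPK8* to 4.09 at *SPRY2*. The order-statistic interval of the median, 2.02 to 2.53, treats genes as draws and covers no spread between cultures or clones. The counting intervals of 32 of the 33 members held this median, and that of *DUSP8* lay above it. At this depth most members could not be told apart in fold. When EIR tags were weighted 1.5 times higher, the median fold was 1.49 and the intervals of 16 of the 33 regions still lay above 1.

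**Figure D1:**
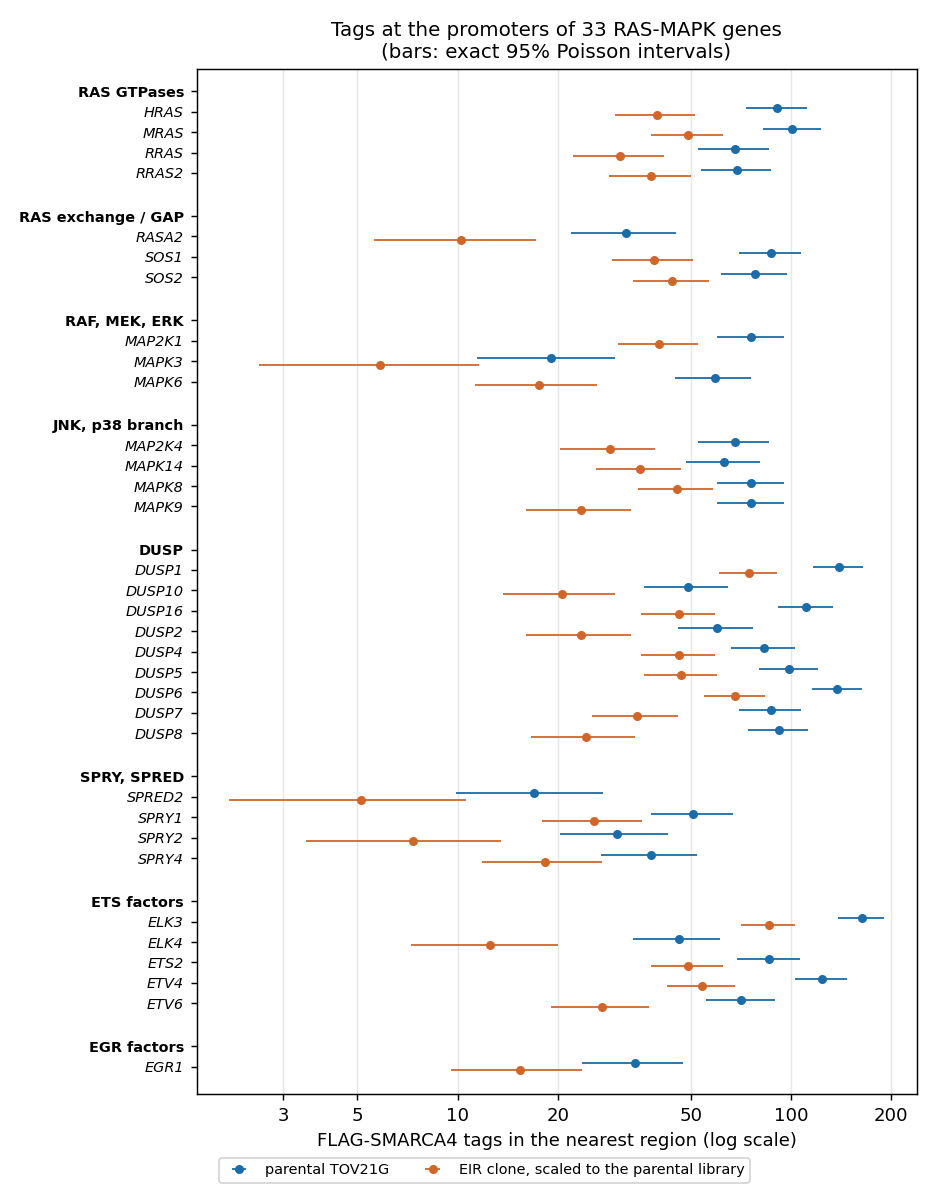
FLAG-SMARCA4 tags (log scale) in the region nearest to a TSS for the 33 members with a promoter region, by role, in parental TOV21G (blue) and the EIR clone scaled to the parental total (orange). Points are single libraries and bars are exact 95% Poisson intervals, and each blue point lies to the right of its orange point, with *ELK3* highest at 163 against 85.8 tags and *SPRED2* lowest at 17 against 5.13.

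Tags and folds of the members were set beside those of all listed promoters, the members included. Among 4643 protein-coding genes whose nearest promoter region was parental-higher, the median was 50 parental tags, 20.5 scaled EIR tags and a fold of 2.52 (quartiles 2.14 and 3.07). Of the 33 members, 25 lay above that median of tags and 22 lay below that median of fold. Per kb of region, the members held 34 to 114 parental tags (median 79.2, against 66 in protein-coding genes) and 10.3 to 67.4 scaled EIR tags (median 36.7, against 25.8). In each library 22 members lay above the median density of protein-coding genes. A total of 14 members had a fold under the lower quartile of all genes and 8 had one above the upper quartile. Tag level and fold can be linked in lists selected for a difference, so the comparison was repeated among genes with 51 to 91 parental tags, the quartiles of the members. There the median fold was 2.21 in 17 members and 2.30 in 1471 protein-coding genes. Without that restriction, the order-statistic interval of the members' median fold, 2.02 to 2.53, only just reached the 2.52 of protein-coding genes. That interval treats genes as draws, so a difference between members and other genes was not tested.

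**Figure D2:**
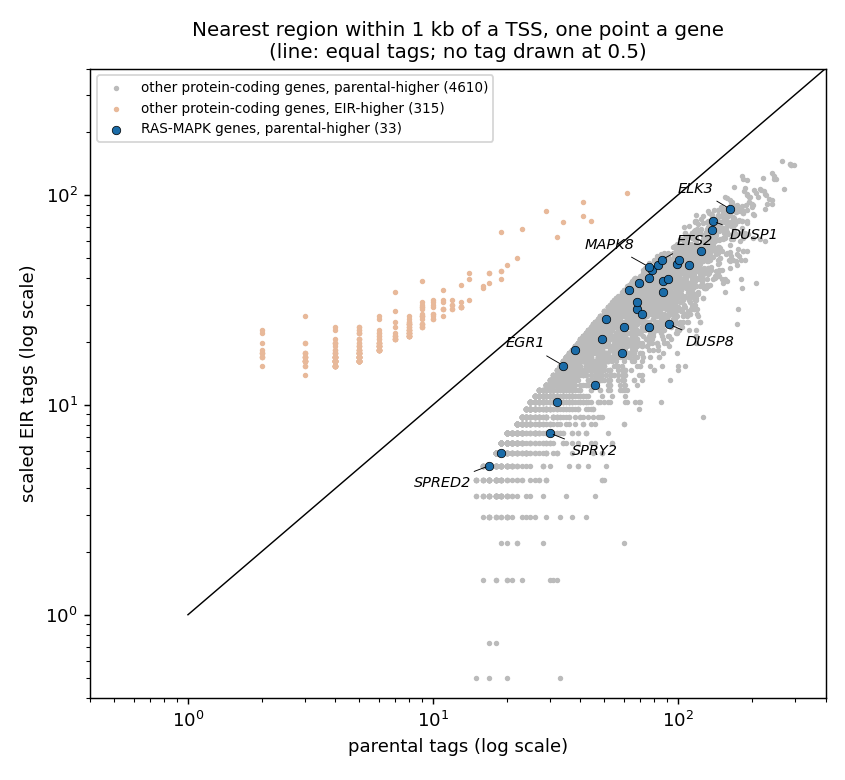
Parental tags against scaled EIR tags (both log scales) of the nearest promoter region, 1 point per protein-coding gene, with the 33 members in blue, 4610 other genes with a parental-higher region in grey and 315 with an EIR-higher region in orange. The line marks equal tags, genes with no tag are drawn at 0.5, and the members lie below the line. Against all genes with a parental-higher region, 25 members lie above the median of parental tags. In fold, 22 members lie below the median and thus nearer to the line, and 8 lie above the upper quartile.

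Of the RAS GTPases, the molecular switches of the pathway, *HRAS*, *MRAS*, *RRAS* and *RRAS2* had parental-higher promoter regions, and *NRAS* had none. The *HRAS* region (chr11:534923-535981, upstream sequence, exon 1 and intron 1) held 91 parental and 39.6 scaled EIR tags, a fold of 2.30 (1.62 to 3.28). *MRAS*, an RAS relative that forms a phosphatase complex with SHOC2, had 101 parental and 49.1 scaled EIR tags across its first exon (chr3:138067016-138068032), with a fold of 2.06 (1.50 to 2.84). *RRAS2* had 69 against 38.1 tags (chr11:14379618-14380376, exon 1 and intron 1), a fold of 1.81 (1.24 to 2.65). These 3 intervals overlapped one another. *RRAS*, whose product acts on integrin adhesion, had 2 regions that flanked its canonical TSS without covering it. The upstream one (chr19:50143774-50144812) lay 374 bp from the TSS with 68 against 30.8 tags, a fold of 2.21 (1.48 to 3.33), and it also lay near the TSS of the neighbouring gene *SCAF1*. The one in intron 1 (chr19:50142386-50142886) held 24 against 7.33 tags, a fold of 3.27 (1.51 to 7.67).

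Among the regulators of RAS nucleotide state, both SOS exchange factors and 1 of 3 GTPase activators had promoter regions. *SOS1* (chr2:39347351-39348255) held 87 parental and 38.9 scaled EIR tags, a fold of 2.24 (1.57 to 3.21). Its paralog *SOS2* (chr14:50697681-50698495) held 78 against 44 tags, a fold of 1.77 (1.25 to 2.53). Both regions covered exon 1 and extended into intron 1, and their intervals overlapped. The *RASA2* region (chr3:141204482-141205136) lay wholly upstream, 733 bp from the TSS, with 32 against 10.3 tags and a fold of 3.12 (1.62 to 6.32). *RASA2* also had a region in intron 3 with 17 parental and 4.40 scaled EIR tags. *NF1* and *RASA1*, the other GTPase activators, had no region.

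In the RAF, MEK and ERK tier the listed promoters were *MAP2K1*, *MAPK3* and *MAPK6*, and *ARAF*, *BRAF* and *MAP2K2* had no region. *MAP2K1*, which encodes MEK1, had 76 parental and 40.3 scaled EIR tags (chr15:66679161-66679933), a fold of 1.89 (1.31 to 2.72), in a region that also lay within 1 kb of the TSS of the divergent gene *TIPIN*. *MAPK3*, which encodes ERK1, had 19 against 5.86 tags (chr16:30134526-30135026) and a fold of 3.24 (1.35 to 8.56). Per kb, *MAP2K1* had 98.4 and *MAPK3* 38 parental tags, the latter the second lowest density of the members after *SPRED2*, while the intervals of their folds overlapped. *MAPK6*, which encodes the atypical kinase ERK3, had 3 promoter regions in a row. The first covered its canonical TSS (chr15:52311250-52312232) with 59 against 17.6 tags, a fold of 3.35 (2.05 to 5.64). The other 2, in intron 1, held 24 against 9.53 and 20 against 7.33 tags, with folds of 2.52 (1.23 to 5.39) and 2.73 (1.22 to 6.53).

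Of the stress kinases of the JNK and p38 branches, 4 of 7 had a promoter region. *MAPK8* (JNK1), *MAPK9* (JNK2), *MAPK14* (p38α) and *MAP2K4*, whose product phosphorylates JNK, had parental-higher promoter regions, and all 4 covered the canonical TSS. *MAPK8* had 76 parental and 45.4 scaled EIR tags (chr10:49514521-49515195), and its fold of 1.67 (1.18 to 2.38) was the lowest of the members. *MAPK9* had the same 76 parental tags but 23.5 scaled EIR tags (chr5:179718468-179719416), a fold of 3.24 (2.12 to 5.06). The intervals of the 2 JNK genes overlapped between 2.12 and 2.38. *MAPK14* (chr6:35995515-35996173) held 63 against 35.2 tags, a fold of 1.79 (1.21 to 2.66), and *MAP2K4* (chr17:11923911-11924721) held 68 against 28.6 tags, a fold of 2.38 (1.58 to 3.62). *MAP2K6*, whose product phosphorylates p38, had no region, and *MAP2K3* and *MAP2K7* had only EIR-higher gene body regions, given below.

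All 9 DUSP genes on the member list had a parental-higher promoter region, against 23.2% of protein-coding genes. This was the one role group with no member missing. Other DUSP genes were not examined, so the family below means these 9. DUSP proteins remove phosphate from both the threonine and the tyrosine of active MAP kinases. *DUSP1*, an immediate early phosphatase of p38 and JNK as well as ERK, had 139 parental and 74.8 scaled EIR tags over exon 1 and 1016 bp of upstream sequence (chr5:172197798-172199214), a fold of 1.86 (1.43 to 2.42). *DUSP6*, the ERK-specific cytoplasmic phosphatase used as a readout of pathway output, had 138 against 68.2 tags in exon 1 and intron 1 (chr12:89744825-89746039), a fold of 2.02 (1.55 to 2.66). Per kb, *DUSP6* had the highest parental density of all members, 114 tags, and *DUSP1* had 98.2. *DUSP16*, a JNK phosphatase, had 111 against 46.2 tags (chr12:12714305-12715321, fold 2.40, 1.75 to 3.33), and *DUSP5*, a nuclear ERK phosphatase, had 99 against 46.9 tags (chr10:112257487-112258493, fold 2.11, 1.53 to 2.94). *DUSP7* had 87 against 34.5 tags (chr3:52089973-52090947) with a fold of 2.53 (1.75 to 3.68). *DUSP4* had 83 against 46.2 tags in intron 1 (chr8:29205213-29206405) with a fold of 1.80 (1.28 to 2.53), at an alternative TSS and 1796 bp downstream of the canonical one. The fewest parental tags in the family were those of *DUSP2* and *DUSP10*, at 78.1 and 78.0 tags per kb. *DUSP2* (chr2:96810458-96811226) had 60 against 23.5 tags, a fold of 2.56 (1.64 to 4.06). *DUSP10* had 49 against 20.5 tags in a region 828 bp upstream of its TSS (chr1:221916259-221916887), a fold of 2.39 (1.47 to 3.94).

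*DUSP8*, a phosphatase of JNK and p38, had the highest fold of the 9 DUSP genes. It was picked out for that fold, and its difference from the family was not tested. It had 92 parental tags, within the range of the other DUSP genes, and 24.2 scaled EIR tags over 483 bp of upstream sequence, exon 1 and intron 1 (chr11:1592488-1593984). Per kb these were 61.5 parental and 16.2 scaled EIR tags, both the lowest of the family. Its fold of 3.80 (2.53 to 5.85) had an interval above that of *DUSP1*, met that of *DUSP4* at its very edge and overlapped those of the remaining DUSP genes.

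**Figure D3:**
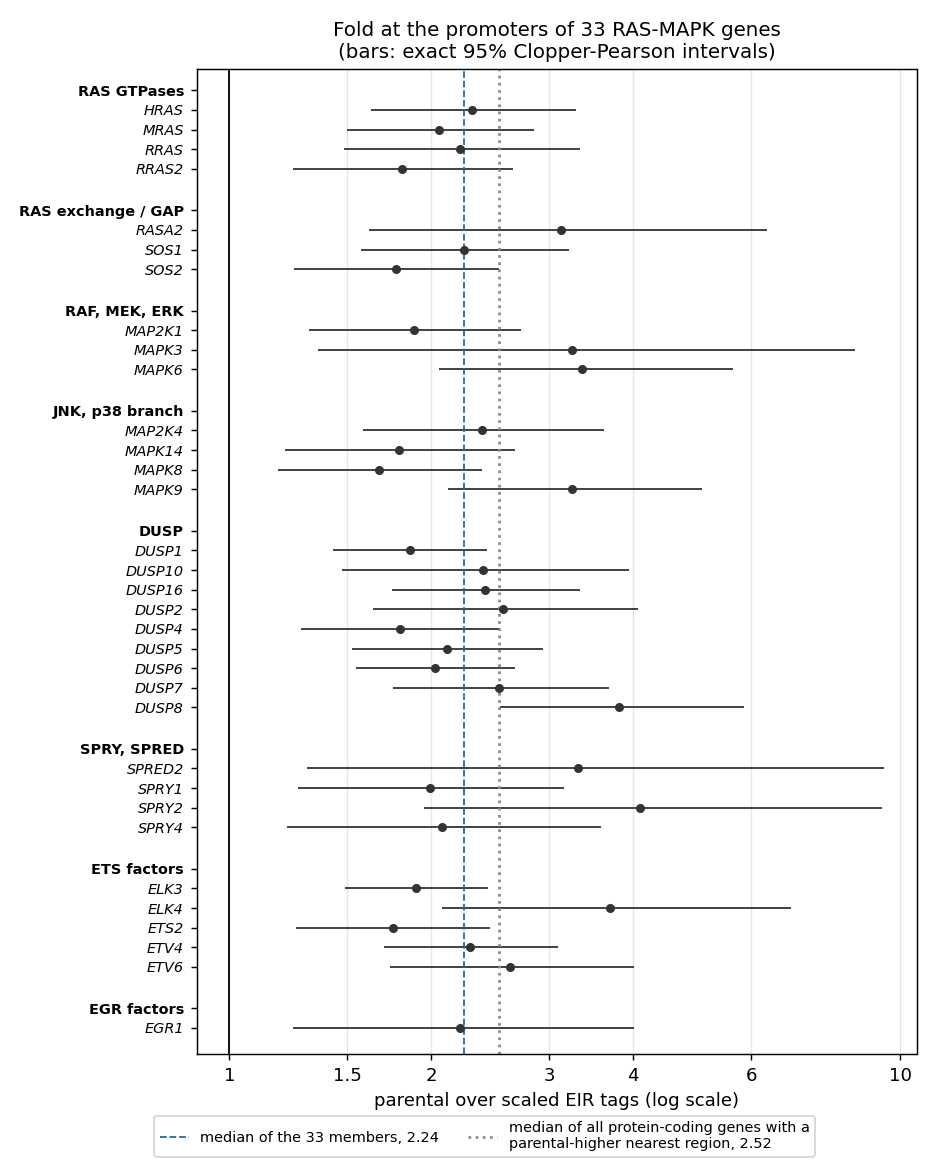
Fold of parental over scaled EIR tags (log scale) in the nearest promoter region of the 33 members, by role, with exact 95% Clopper-Pearson intervals from 1 library each. The dashed line is the median of the 33 members, 2.24, the dotted line is the median of all protein-coding genes with a parental-higher nearest region, 2.52, and the interval of *DUSP8* is the only one that lies wholly to the right of the dashed line.

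The SPRY and SPRED inhibitors, which block RAS activation downstream of receptors, had promoter regions in 4 of 6 members. Their nearest regions all had fewer parental tags than the members' median of 76. These regions were short, 644 bp at *SPRY1* and 500 bp at the others, against the members' median of 904 bp. Per kb they held 79.2 (*SPRY1*), 76 (*SPRY4*), 60 (*SPRY2*) and 34 (*SPRED2*) parental tags, against the members' median of 79.2. *SPRY2* had 30 parental and 7.33 scaled EIR tags at exon 1 (chr13:80914911-80915411), and its fold of 4.09 (1.95 to 9.38) was the highest of the members, with a wide interval. *SPRY1* had 51 against 25.7 tags in intron 2 of the canonical transcript (chr4:124319296-124319940), where another transcript starts, with a fold of 1.99 (1.27 to 3.15). *SPRY4* had one region upstream of its canonical TSS (chr5:141705604-141706104) with 38 against 18.3 tags, a fold of 2.07 (1.22 to 3.58). A region in its exon 1 and intron 1 (chr5:141703943-141704443) held 54 against 30.8 tags, a fold of 1.75 (1.15 to 2.69), and both covered a TSS of the gene. *SPRED2* had regions on both sides of its canonical TSS. The upstream one (chr2:65659895-65660395) held 17 against 5.13 tags, a fold of 3.31 (1.31 to 9.45), and the one in intron 1 (chr2:65657925-65658833), 900 bp from a TSS, held 84 against 43.2 tags, a fold of 1.94 (1.38 to 2.76). The region that stood for *SPRED2* was thus the one with fewer tags, because it lay nearer to a TSS. *SPRED1* had a region in intron 1 alone, and *SPRED3* had none.

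Of the ETS factors, the nuclear effectors of ERK, 5 of 9 had promoter regions. *ELK3*, a ternary complex factor that acts with SRF, had the most tags of all members in a long region, 163 parental and 85.8 scaled EIR tags from 426 bp upstream to 1682 bp downstream of its TSS (chr12:96587727-96589835), a fold of 1.90 (1.49 to 2.43). Per kb its 77.3 parental tags were near the members' median of 79.2. *ELK4*, a ternary complex factor too, had 46 against 12.5 tags at its TSS (chr1:205600452-205601366), a fold of 3.69 (2.08 to 6.87). The *ELK3* and *ELK4* intervals overlapped between 2.08 and 2.43. A further *ELK4* region, near the TSS of a transcript that starts more than 30 kb downstream (chr1:205569797-205570425), held 24 against 8.80 tags, a fold of 2.73 (1.31 to 5.99). *ETS2* (chr21:40177980-40178770) held 86 against 49.1 tags, a fold of 1.75 (1.26 to 2.45), and *ETV6*, an ETS repressor, held 71 against 27.1 tags (chr12:11802226-11803390), a fold of 2.62 (1.74 to 4.01). *ETS1* had a gene body region alone, and *ELK1*, *ETV1* and *ETV5* had none.

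*ETV4*, a PEA3-family ETS factor and a target of ERK signalling, had more regions than any other member, 9 in all, each parental-higher. Only 74 of the 6143 protein-coding genes with any region had as many or more, and the median was 1. They lay within 40.4 kb, each was listed because it differed, and their folds ran from 2.15 to 4.09. The one with the most tags (chr17:41620703-41623033) covered exons 2 to 4 of the canonical transcript and the TSSs of other transcripts with 124 against 54.2 tags, a fold of 2.29 (1.70 to 3.09). A region just upstream of the canonical TSS (chr17:41623788-41624438) held 41 against 19.1 tags, a fold of 2.15 (1.28 to 3.66). The 6 regions that lay between 15467 and 34016 bp upstream of the canonical TSS fell within the gene record because longer transcripts start there, and 2 of them were within 1 kb of such a start. These distal regions held 17 to 43 parental tags. One of them (chr17:41657224-41657724) had 18 against 4.40 tags, and its fold of 4.09 (1.56 to 12.6) was the highest at the locus, with a wide interval. The region with the most tags also lay within 1 kb of a TSS of *DHX8*, so it could not be assigned to *ETV4* alone.

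**Figure D4:**
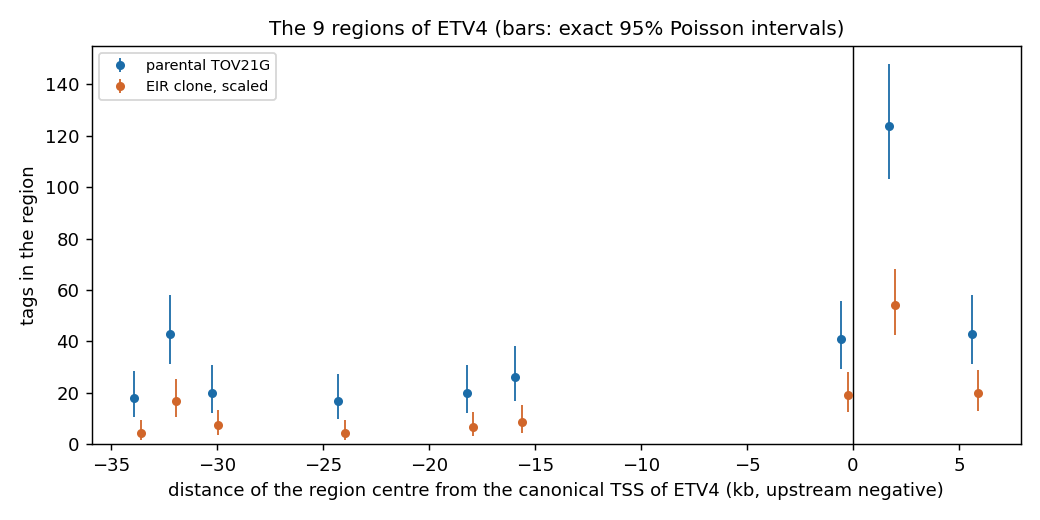
Tags in the 9 regions of *ETV4* (linear scale) against the distance of the region's centre from the canonical TSS in kb, upstream negative, in parental TOV21G (blue) and the scaled EIR clone (orange, drawn slightly to the right), with exact 95% Poisson intervals. Each parental value is above its EIR value, from 124 against 54.2 tags downstream of the TSS to 17 against 4.40 tags at one of the distal regions.

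Of the EGR factors, zinc-finger immediate early genes, only *EGR1* had a promoter region. It held 34 parental and 15.4 scaled EIR tags from 288 bp upstream to 504 bp downstream of the TSS (chr5:137800880-137801672), a fold of 2.21 (1.25 to 4.00). *EGR3* missed the 1 kb window narrowly. Its nearest region lay 1228 bp upstream (chr8:22552221-22553293) and held 80 against 36.7 tags, a fold of 2.18 (1.51 to 3.17), at 74.6 parental tags per kb against 42.9 at *EGR1*. *EGR2* had its nearest region 11145 bp downstream of its TSS (chr10:64564481-64564981), with 35 against 16.1 tags and a fold of 2.17 (1.24 to 3.88). The 3 folds were close to one another. They also lay within the quartiles, 2.14 and 3.07, of all protein-coding genes with a parental-higher nearest promoter region. Just inside the 1 kb limit lay the second region of *SPRED2*, at 900 bp, and the region of *DUSP10*, at 828 bp.

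Gene body regions were fewer than promoter regions. There were 15 in 10 members. Parental-higher ones were found in 8 members (16%), against 9.22% of protein-coding genes, and EIR-higher ones in 2 members (4%), against 3.13%. The members were longer than protein-coding genes in general, with a median of 37.6 kb against 27.2 kb, which leaves more room for a gene body region, and the part of length in these shares was not tested. The 13 parental-higher regions held 17 to 43 parental and 4.40 to 19.8 scaled EIR tags, with folds of 2.17 to 4.09. Most lay in introns. The *ETS1* region in intron 3 (chr11:128378896-128379396) had 18 against 5.13 tags, a fold of 3.51 (1.40 to 9.94). The *SPRED1* region in intron 1 (chr15:38571133-38571633) had 18 against 5.86 tags, a fold of 3.07 (1.27 to 8.16). *SPRY4* had the highest fold of these regions, 4.09 (1.78 to 10.5), with 24 against 5.86 tags in intron 1 (chr5:141698600-141699100). The others lay in *DUSP4*, *MRAS*, *RASA2*, *SPRED2*, which had 2, and *ETV4*, which had 5.

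The only EIR-higher regions in the members were in *MAP2K3* and *MAP2K7*, whose products phosphorylate p38 and JNK, respectively. The *MAP2K3* region (chr17:21202171-21202671) covered coding exon 3 and parts of introns 2 and 3, and held 5 parental tags against 22 EIR tags (16.1 scaled). EIR over parental tags was 3.23 there (1.19 to 10.9). The *MAP2K7* region (chr19:7978602-7979238) lay in the untranslated part of exon 11 and held 5 parental tags against 27 EIR tags (19.8 scaled), an EIR over parental ratio of 3.96 (1.50 to 13.2). Their 5 parental tags were fewer than at any promoter region of the members, while their EIR tags lay within the range of those regions. The *MAP2K7* region lay 199 bp from a TSS of another gene, and TSSs of *TGFBR3L* lay within 1 kb of it, so it could not be assigned to *MAP2K7* alone. Neither of these regions held a 75-base window, the read length, with another exact copy in the genome. Copies with mismatches were not searched, so ambiguous alignment was not tested.

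The 13 members without a region were *NRAS*, *NF1*, *RASA1*, *ARAF*, *BRAF*, *MAP2K2*, *MAP2K6*, *SPRED3*, *ETV1*, *ETV5*, *ELK1*, *EGR2* and *EGR3*. Their nearest region of either list lay 1.23 kb (*EGR3*) to 1235 kb (*RASA1*) from the canonical TSS, with a median of 127.9 kb. Their median length was 33.8 kb with 7 distinct TSSs, against 40.7 kb and 6 in members with a promoter region and 67.5 kb and 8 in members with a gene body region alone. No 75-base window within 500 bp of their canonical TSSs, or of those of the other members, had another exact copy in the genome, and inexact copies were not searched. Besides *EGR2* and *EGR3*, *NF1* and *SPRED3* had a region within 20 kb of the gene. The *NF1* one (chr17:29402106-29402606), 19389 bp upstream, held 21 against 6.60 tags, and the *SPRED3* one (chr19:38893736-38894362), 14399 bp downstream of its TSS and past the gene's end, held 61 against 31.5 tags.

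Other genes of the same pathway were counted from a list of 66 adaptors, regulators, kinases and targets. That list was chosen with earlier results of these data known, and a difference from all genes was not tested. Of all protein-coding genes, 23.2% had a parental-higher promoter region and 1.96% an EIR-higher one. Their median fold was 2.52 where the nearest region was parental-higher. Among the 66, a parental-higher promoter region was found for 39 (59.1%) and an EIR-higher one for 0, with a median fold of 2.36. By role these were 7 of 10 adaptors, 3 of 5 exchange factors, 3 of 6 GTPase activators, 2 of 6 scaffolds and RAF regulators, 4 of 9 further core kinases, 6 of 7 MAP3K genes, 5 of 7 kinases downstream of ERK, 6 of 10 immediate early and target genes and 3 of 6 ETS-related factors.

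The regions sat on and just downstream of the start of transcription. The nearest region covered a TSS in 28 of the 33 members, and in the other 5 it lay 73 bp (*ETS2*), 124 bp (*SPRED2*), 374 bp (*RRAS*), 733 bp (*RASA2*) and 828 bp (*DUSP10*) away. It covered the canonical TSS in 21 members (63.6%), against 54.7% of protein-coding genes with a parental-higher nearest region. Of these 21 regions, 19 (90.5%) were centred downstream of the TSS, at a median of 200 bp, against 82.4% and a median of 160 bp in protein-coding genes. The regions were 500 to 2330 bp long, with a median of 904 bp against 764 bp.

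**Figure D5:**
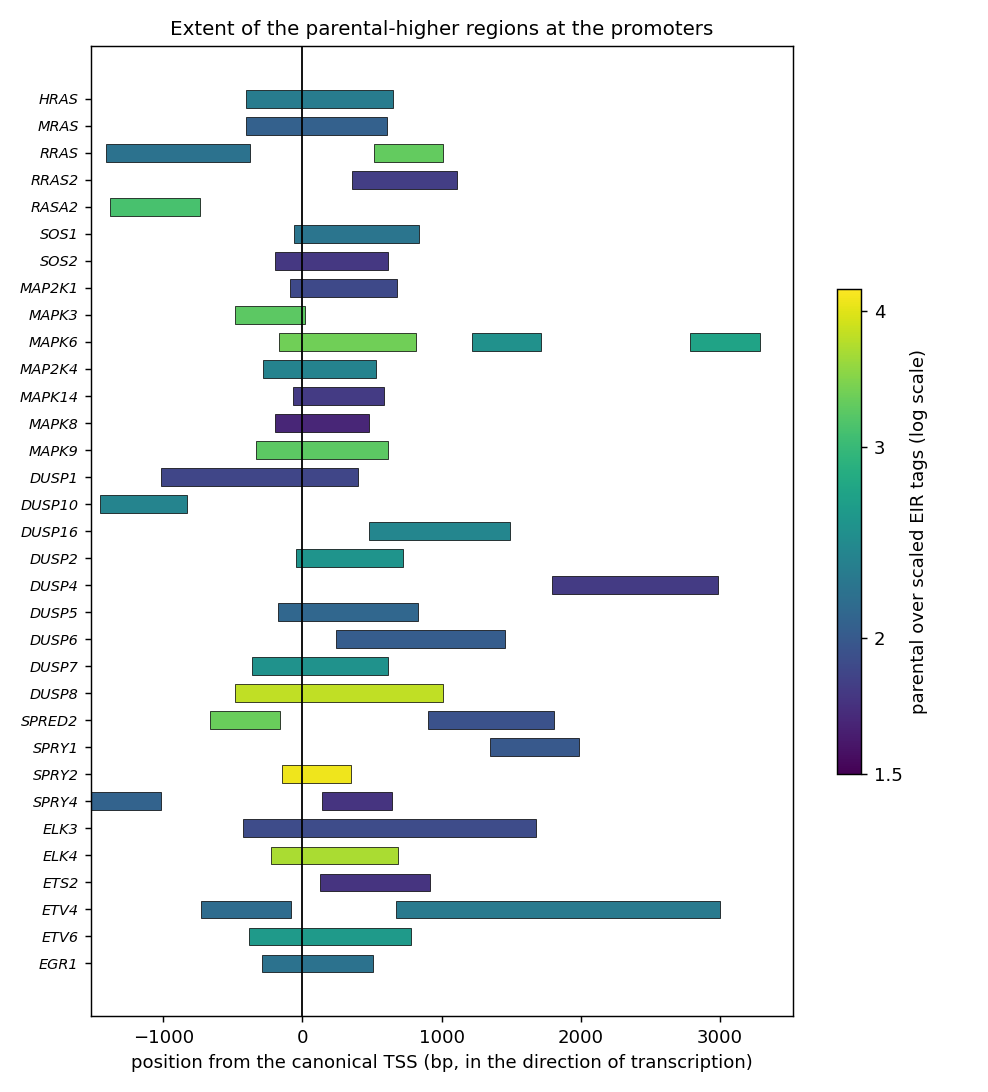
Extent of the parental-higher promoter regions around the canonical TSS (vertical line) in bp along the direction of transcription, 1 row per member and 39 regions in all, coloured by fold on a log scale. The 3 regions not drawn lie at distal starts of *ETV4* and *ELK4*, and most bars reach further downstream than upstream, with *DUSP4* and *SPRY1* starting 1796 and 1346 bp downstream at alternative starts.

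The promoters of the members were GC-rich. In the 200 bases before the canonical TSS the median GC content was 70% in the 50 members and 64.5% in 19853 protein-coding genes, and it was 73% both in the 33 members with a promoter region and in all 4632 protein-coding genes with a parental-higher one. GGGCGG was found in 35 members (70%) against 56.5% of protein-coding genes, and in 25 of the 33 with a promoter region (75.8%) against 78.7% of all genes with one. Members with a promoter region thus had much the same base composition as other genes with a parental-higher region, and the part of base composition in the counts was not tested.

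Motifs of factors that the pathway acts on were found in few members. The CArG box and the CRE had a larger share in members than in protein-coding genes, and the ETS motif a smaller one. These shares rest on at most 4 members each and were not tested. In the 33 members with a promoter region each of the 3 motifs had a share of 6.06%. Among all genes with a parental-higher promoter region the shares were 0.907% (CArG), 2.35% (CRE) and 8.89% (ETS). The CArG box was found in 4 members (8%), *DUSP5*, *EGR1*, *EGR2* and *EGR3*, against 0.952% of protein-coding genes. The CRE was found in 4 (8%), *NF1*, *BRAF*, *DUSP1* and *DUSP8*, against 2.29%. Members with these motifs were found both with and without a listed region. The ETS motif CCGGAAG was found in *HRAS* and *ELK4* (4%) against 10.9%, the AP-1 motif TGACTCA in *MAP2K3* (2%) against 2.49%, and the EGR motif GCGTGGGCG, which can overlap GGGCGG, in 0 members against 0.957%. CCAAT was found in 14 members (28%) against 30.4%, and TATAAA in *DUSP1* (2%) against 7.74%. All motifs were searched on both strands, and these shares describe letters in a window and not bound sites.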

How the data were processed

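Human TOV21G cells were measured in 2 ChIP-seq libraries, 1 per condition, grouped by their labels. Per the study's methods and processing notes, the authors aligned 75-base reads to hg19 with Bowtie 0.12.9 and ran HOMER with its histone option, each library serving as control of the other, at their FDR threshold. The deposited lists give the tag count of one library per region, a signal of the other scaled to the parental total and a normalised signal per 10000000 tags, the ratio of both as a fold, and HOMER's Poisson p-value. Other columns were not used.

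Totals and whole EIR tags were recovered from the steps of the scaled values. All 173 distinct values of at least 5 were whole multiples of the step within 0.05 scaled tags, and recomputed folds differed from the deposited ones by at most 0.309%. Regions were joined to every transcript TSS of GENCODE release 44 on GRCh37. A member was named with both libraries' tags when a region lay within 1 kb, by body regions otherwise, and by name alone when it had none. Ties were settled by the smallest p-value. The members and lists were chosen with earlier results of these data known. No test between conditions was possible. The scripts were tested on simulated data. Software was samtools 1.23.1, matplotlib 3.10.9 and, under Python 3.11.15, pandas 2.3.3, numpy 2.4.6, pysam 0.24.0 and scipy 1.17.1.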

Additional observations from a re-analysis of the deposited data

How the results depend on the processing

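Under another window, fold or caller p each region kept the direction of its list, so those alternatives could not turn a direction. The lowest fold of the nearest promoter regions, 1.67 at *MAPK8*, exceeded the scaling of 1.5, so the scaling could not turn one either. The 5 kb window added 1 EIR-higher member. The count of 33 members with a promoter region was 31 with a 500 bp window, 36 with 5 kb (35 parental-higher, 1 EIR-higher), 31 from the region's centre, 27 from the 5' end of the gene, 33 with protein-coding transcripts, 23 at a fold of at least 2 and 24 at a caller p of at most 1e-06. It was 2 (*SPRY2* and *ETV4*) at a fold of at least 4, since most regions were listed with smaller folds, and 17 with the EIR library scaled 1.5 times higher, keeping regions whose interval stayed above 1. Scaled so, the median fold was 1.49, and 16 of the 33 nearest regions kept an interval above 1. It was 3.36 with the EIR library scaled 1.5 times lower. A pseudocount of 1 tag gave 2.22, and summing all promoter regions gave 2.24. The 10 members with a gene body region became 1 at a fold of at least 4 and 21 with the gene extended by 20 kb on both sides, which by construction takes in more sequence.

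With 1 library per condition, the intervals cover counting error only and no spread between cultures or clones can be given. Depth limited the weakest regions, such as *SPRED2* with 17 against 5.13 tags. Alternatives could remove regions but not add ones that were not listed. No paired analysis was possible because each group has 1 library.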

Other observations

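Regions in the 20 kb on either side of the genes were neither promoter nor gene body regions by the rule used. There were 21 in 14 members, 19 of them parental-higher and 2 EIR-higher. *SPRY1* had the most, 5 regions that were all parental-higher, with 19 to 43 parental tags and folds of 2.44 to 3.41. The nearest of them lay 2344 bp upstream of its canonical TSS (chr4:124314730-124315606) and held 43 parental against 16.1 scaled EIR tags, a fold of 2.67 (1.56 to 4.68).

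The 2 EIR-higher regions lay downstream of *DUSP6* and *MAP2K3*. The *DUSP6* one (chr12:89739150-89739650) held 4 parental tags against 23 EIR tags (16.9 scaled), an EIR over parental ratio of 4.21 (1.44 to 16.8), while the promoter of the same gene was parental-higher with 138 against 68.2 tags. The *MAP2K3* one (chr17:21225258-21225898) held 11 parental tags against 42 EIR tags (30.8 scaled), a ratio of 2.80 (1.42 to 6.0), and it had the same direction as the region in exon 3 of that gene. *MAP2K7*, the other member with an EIR-higher region in its body, had a parental-higher region past its end (chr19:7990401-7991371) with 61 against 19.8 tags, a fold of 3.08 (1.93 to 5.04).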
